A study of Mus musculus with 16 samples.

Results

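Genes that follow the ERK signal were sought by pooling the 4 groups of libraries by state. ERK was on in the 2h and 4h groups (8 libraries) and off in the 0h and rev groups (8 libraries), so that all 16 libraries of the series entered the comparison. The cells were mouse RSCs of the line CRAFR26, derived from embryonic stem cells and carrying a c-RAF kinase construct that 4-hydroxytamoxifen switches on. Their usual medium was N2B27 with the Wnt secretion inhibitor IWP2, the MEK inhibitor PD03 and LIF. For 48 h before the experiment all groups had the FGF receptor inhibitor PD17 at 250 nM in place of PD03. The 0h group was then collected without tamoxifen, and the 2h and 4h groups after 2 h and 4 h of tamoxifen at 250 nM. The rev group had 4 h of tamoxifen and then 2 h of a MEK inhibitor, whose dose the labels do not give. Each group held 2 libraries from clone 4 and 2 from clone 8 of the targeted line. Off therefore pools cells that never had tamoxifen with cells that had it and were then inhibited. Cells without the construct, and a 6 h induction without inhibitor, were not analysed here, so effects of tamoxifen other than through the construct, and the inhibitor and the later time of rev, cannot be told apart from the state. The state is that of the treatment, as no phosphorylated ERK was measured in these data.

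RAF kinases phosphorylate MEK, which phosphorylates ERK, and active ERK enters the nucleus and switches on transcription through ETS and other factors. The first genes to respond are the immediate-early genes, many of them transcription factors with short-lived transcripts, together with phosphatases and Sprouty proteins that feed back on the cascade. In mouse pluripotent cells FGF4 is the main natural source of ERK activity, and the signal moves cells out of the naive state. Blocking MEK or FGF receptors is therefore a standard way to hold them there.

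A count table of 52636 gene IDs was the sole data file, and 12742 genes passed the filter on low counts. Totals ran from 4.31 to 10.4 M counts in the ERK-on libraries and from 4.88 to 9.99 M in the ERK-off libraries. A set of 8 features, each above 1% of all counts, took 46.7% to 64.9% of the ERK-on libraries and 58.8% to 78.9% of the ERK-off libraries. Outside them lay 1.53 to 5.46 M counts with ERK on and 1.30 to 4.04 M with ERK off, the least in rev clone 8 replicate 1. The first principal component of log2 CPM (51% of the variance of the 500 most variable genes) separated the clones. The second (20.9%) separated the states within each clone: in clone 4 the ERK-off libraries lay at 9.19 to 19.9 and the ERK-on libraries at -22.1 to 5.56, and in clone 8 at -4.33 to 8.21 and -10.6 to -6.02. The third component (8.57%) put 0h and 4h on one side (3.56 to 11.0) and 2h and rev on the other (-12.1 to -3.27), a split that lies across the on and off states and not along them. Of the markers of pluripotent cells, Pou5f1 (120 to 175 CPM), Sox2 (201 to 241 CPM) and Cdh1 (221 to 448 CPM) were present in every library. Nanog (111 to 722 CPM), Sall4 (210 to 356 CPM) and Klf4 (18 to 158 CPM) were also present in every library. So were Lin28a (10.8 to 93.3 CPM), Podxl (7.57 to 53.7 CPM) and Epcam (6.36 to 26 CPM). Otx2, which marks the step out of the naive state, held 4.18 to 15.9 CPM. The naive genes Esrrb (154 to 364 CPM) and Tfcp2l1 (112 to 455 CPM) were present throughout. None of 7 fibroblast markers passed the filter.

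With ERK on, the RNA of a small set of genes rose by large factors, led by Egr1, Spry4, Egr3, Dusp6, Id1, Phlda1 and Myc (Egr3 at very low counts in clone 8), and a smaller set fell by modest factors, led by Elf3 and Rgma. With edgeR's quasi-likelihood test and the clone as a covariate, 401 genes (3.15% of 12742) had an adjusted p under 0.05, which is what called means here. Of these, 250 (1.96%) were higher and 151 (1.19%) were lower with ERK on. Without 0h clone 4 replicate 1 the count was 250 and without 0h clone 4 replicate 2 it was 260. A called gene is described as ERK-following when, in each clone, all 4 ERK-on libraries lay above all 4 ERK-off libraries, or all below. The ERK-following genes numbered 150 (1.18% of the genes tested), 110 higher (0.863%) and 40 lower (0.314%). Regardless of the call, 122 genes (0.957%) had every ERK-on library above every ERK-off library within both clones and 48 (0.377%) had every one below. Since the same libraries chose these genes, their sizes are a description. Changes are given as log2, ERK on minus off, with the standard error of the fit. Levels are CPM, the share of a library's counts, after TMM scaling, and CPM of different genes are not comparable because gene length differs.

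The largest rises exceeded the largest falls, while most changes in either direction were below 1 on the log2 scale. Among the 110 higher ERK-following genes, 19 rose by 2 or more on the log2 scale, 26 by 1 to 2 and 65 by less than 1, with a median of 0.80. Among the 40 lower genes none fell by 2 or more, 7 fell by 1 to 2 and 33 by less than 1, with a median of -0.67. The median over all genes tested was -0.000314. The smallest changes among the 150 were 0.24 upwards (Akirin2 and Sptbn1) and -0.30 downwards (Slc6a6), so the library order rule also took in genes that moved little. The gap between the nearest on and off libraries was often narrow. Its median among the higher genes was 0.229 log2 CPM in clone 4 and 0.203 in clone 8. Among the lower genes it was 0.173 and 0.0929. The smallest gaps of the higher genes were 0.002 and 0.00126. Protein-coding genes made up 104 of the higher and 37 of the lower genes.

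Immediate-early transcription factors gave the largest single change. Egr1, an early growth response zinc-finger factor (chr18:34859823-34864984, plus strand, GRCm38), ranged from 0.999 to 6.55 CPM in the ERK-off libraries (median 3.16) and from 29.8 to 572 CPM in the ERK-on libraries (median 204). No ERK-on library came near any ERK-off library. The change was 6.11 (SE 0.46, edgeR adjusted p = 1.01e-07), 6.45 in clone 4 and 5.53 in clone 8. Within the on state, Egr1 was higher at 2h (344 ± 202 CPM, SD, n = 4) than at 4h (145 ± 134 CPM). An SD over 4 libraries, here and below, includes the difference between the clones. The Egr1 means were 515 CPM in clone 4 and 174 CPM in clone 8 at 2h. At 4h they were 259 and 30.6 CPM.

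Myc, which drives growth and proliferation (chr15:61985391-61990374, plus strand), ranged from 0.575 to 4.37 CPM with ERK off (median 2.04) and from 13.2 to 39.3 CPM with ERK on (median 29.4). It rose by 3.54 (SE 0.33, edgeR adjusted p = 1.7e-06). Unlike most of the higher genes it changed more in clone 8 (4.22) than in clone 4 (3.04). Egr3, a relative of Egr1, rose by 4.18 (SE 0.42, edgeR adjusted p = 4.55e-06) from a level near 0. Its 4 clone 4 libraries with ERK on held 13.1 to 19.6 CPM, while those of clone 8 held 0.306 to 0.912 CPM. In clone 8 the lowest ERK-on library of Egr3 held 2 counts and the ERK-off libraries 0 or 1, so its order in that clone rests on very few counts.

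Of the list of immediate-early transcription factors, 16 of 21 were tested, 9 were higher and 0 lower, with a median change of 1.31. The other members that rose were Fos, Fosl1, Jun, Junb, Maff and Csrnp1. Fosl1 rose by 2.03 and Maff by 1.30, and both were ERK-following; Fosl1 shares 57.2% of its exon length with another annotated gene, so its counts are uncertain. Fos, the partner of Jun in the AP-1 factor, rose by 3.26 (SE 0.60, edgeR adjusted p = 0.00476) but did not follow the state in every library. Its level was 15.6 ± 8.71 CPM in the 2h libraries and 2.00 ± 1.42 CPM in the 4h libraries (SD, n = 4), against 0.621 ± 0.449 CPM at 0h and 1.19 ± 0.261 CPM at rev. The 4h libraries thus lay close to the off libraries, and 1 clone 8 library at 4h (0.804 CPM) lay below 2 of the ERK-off libraries of its clone. Of the other immediate-early list, 14 of 14 were tested, 5 were higher (Ier2, Zfp36, Zfp36l1, Arc and Phlda1), 1 was lower (Gadd45b), and the median was 0.25. Zfp36l1, which speeds the decay of AU-rich transcripts, rose by 1.85 from 4.31 to 9.69 CPM with ERK off to 13.1 to 45.7 CPM with ERK on, and shares 55.9% of its exon length with another gene.

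**Figure D1:**
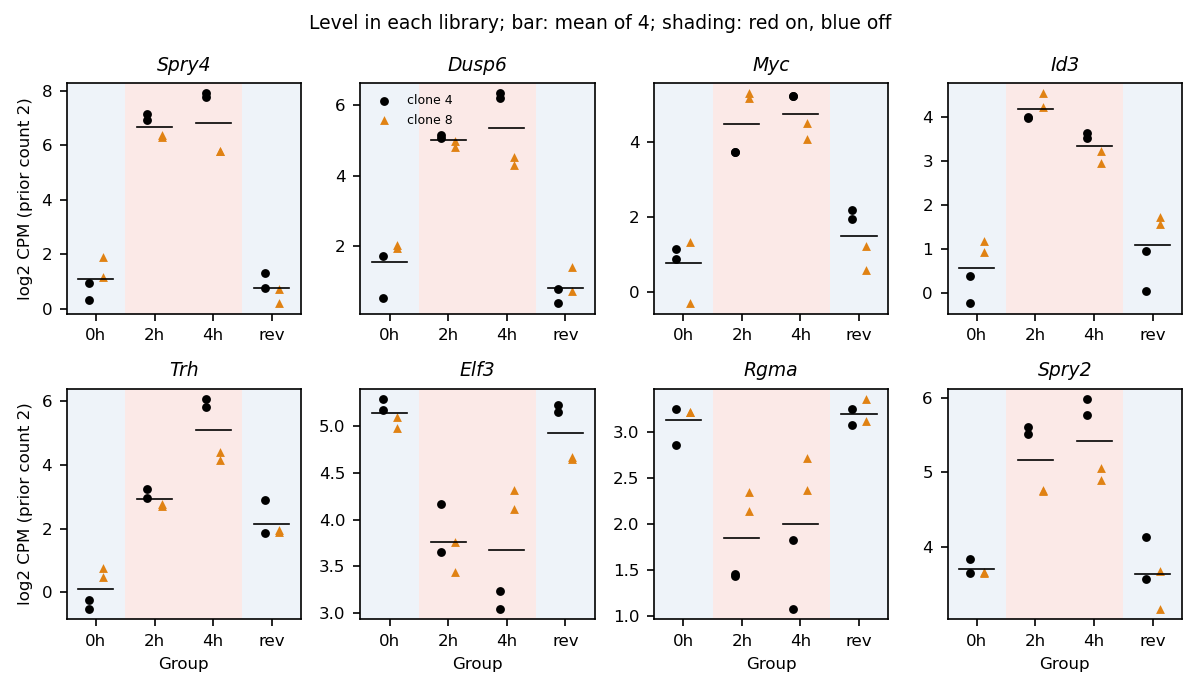
Level of 8 genes in each library as log2 CPM with a prior count of 2 (vertical axis), by group (horizontal axis), with clone 4 as black circles, clone 8 as orange triangles, bars at the mean of 4 libraries and red shading for ERK on and blue for ERK off. Spry4, Dusp6, Myc, Id3 and Spry2 were high at 2h and 4h alone, Trh was also higher at rev than at 0h, and Elf3 and Rgma were low at 2h and 4h.

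The feedback inhibitors rose in number as well as in size. Of 20 members 19 were tested, 9 were higher and 0 lower, with a median of 0.62; the risers were Dusp2, Dusp4, Dusp5, Dusp6, Spry2, Spry4, Spred1, Spred2 and Il17rd, and 6 of them were ERK-following. Spry4, a Sprouty protein that restrains receptor tyrosine kinase signalling (chr18:38586247-38601415, minus strand), held 0.908 to 3.45 CPM with ERK off (median 1.56) and 54.4 to 238 CPM with ERK on (median 101). Its change of 5.98 (SE 0.27) had the smallest adjusted p of the fit (3.7e-11, edgeR). Dusp6, the phosphatase that removes the activating phosphates of ERK in the cytoplasm (chr10:99263231-99267489, plus strand), held 1.07 to 3.84 CPM with ERK off (median 1.95) and 19.3 to 80.0 CPM with ERK on (median 32.3).

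Dusp6 changed by 4.07 (SE 0.32, edgeR adjusted p = 1.5e-07), and its on and off libraries did not overlap in either clone. Dusp4, a nuclear phosphatase of the same family, rose by 2.77 (SE 0.45, edgeR adjusted p = 0.00163), from 0.599 to 5.65 CPM to 8.82 to 68.8 CPM. Spry2 rose less, by 1.62, but with a small error (SE 0.12, edgeR adjusted p = 1.01e-07), from 8.78 to 17.3 CPM with ERK off to 26.8 to 63.1 CPM with ERK on. Spred1, an inhibitor of RAF activation, rose by 1.32, and Il17rd, also called Sef, by 0.71. Dusp2 (1.74), Dusp5 (1.44) and Spred2 (0.38) rose in the pooled test without following the state in every library of both clones.

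The ETS factors, through which ERK reaches many promoters, changed in part. All 12 were tested, 4 were higher (Etv1, Etv4, Etv5 and Erf), 0 were lower and the median was 0.35. Etv4 rose by 2.42 (SE 0.47, edgeR adjusted p = 0.00635), from 0.303 to 6.27 CPM with ERK off to 4.70 to 39.7 CPM with ERK on. Etv5, another activator of the same subfamily, rose by 0.51 and Erf, an ETS repressor that ERK phosphorylates, by 0.53. Erf at rev (80.5 ± 9.32 CPM, SD, n = 4) lay between 0h (51.6 ± 1.68 CPM) and the ERK-on groups, and rev differed from 0h by 0.63 (edgeR adjusted p = 0.000298). Elf3, an epithelial ETS factor outside this list, was the gene with the largest fall by the naming rule, described below.

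None of 20 members of the RAF, MEK and ERK cascade itself was called by edgeR, and 3 of 20 had an unadjusted p under 0.05 (among them Braf, with a change of 0.40, and Nras, with 0.19). DESeq2 also called 0. The list median was -0.00972. FGF ligands and receptors had 9 tested of 12, with 0 higher, 2 lower and a median of -0.28. Fgf4, the main FGF of these cells, fell by 0.74 (log2 change -0.74, SE 0.19, edgeR adjusted p = 0.0394), mostly at 4h (104 ± 42.4 CPM) and less at 2h (188 ± 8.74 CPM), against 224 ± 31.6 CPM at 0h and 261 ± 10.3 CPM at rev (SD, n = 4). Fgfr1 fell by 0.36 on the log2 scale. Neither gene was ERK-following: in clone 8, Fgf4 overlapped between the states. edgeR called neither when library totals took the place of TMM.

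Some genes of BMP signalling were among the largest rises. Of 11 list members, all tested, 4 were higher (Id1, Id3, Bmp4 and Smad7), 0 were lower and the median was 0.14. Id1 and Id3 encode inhibitors of basic helix-loop-helix factors and are classical targets of BMP signalling. Id3 (chr4:136143497-136145755, plus strand) held 0.599 to 3.07 CPM with ERK off (median 1.68) and 7.5 to 23.0 CPM with ERK on (median 13.9), a change of 3.11 (SE 0.27, edgeR adjusted p = 6.14e-07). Id1 (chr2:152736251-152737410, plus strand) held 0.144 to 0.799 CPM with ERK off and 2.07 to 23.2 CPM with ERK on, a change of 3.79 (SE 0.53, edgeR adjusted p = 0.000338). The paired genes differed in time: Id3 was lower at 4h than at 2h, (log2 change -0.88, edgeR adjusted p = 0.0119), while Id1 was higher at 4h, by 1.96 (edgeR adjusted p = 0.00134).

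Bmp4, the ligand (chr14:46383520-46390669, minus strand), rose by 3.0 (SE 0.44, edgeR adjusted p = 0.000487), from 0.606 to 1.16 CPM with ERK off to 2.90 to 21.3 CPM with ERK on. Smad7, the inhibitory SMAD, rose by 1.15 in the pooled test. In the opposite direction, Rgma, a membrane-anchored co-receptor of BMPs that is not in this list, fell, as described with the falls.

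The other large rises by the naming rule were Phlda1 (3.75), Soga3 (3.37), Trh (3.01), Hs3st3b1 (2.98) and Nefm (2.72). Trh, the precursor of thyrotropin-releasing hormone, held 0.455 to 7.23 CPM with ERK off and 6.24 to 66.8 CPM with ERK on. It was 7.38 ± 1.32 CPM after 2 h of tamoxifen and 40.2 ± 24.7 CPM after 4 h (SD, n = 4), and at rev it was still 4.43 ± 1.87 CPM against 0.908 ± 0.46 CPM at 0h. After 4 h the Trh mean was 61.2 CPM in clone 4 and 19.2 CPM in clone 8. Hs3st3b1, an enzyme that sulfates heparan sulfate, rose from 1.21 to 3.05 CPM to 10.8 to 46.3 CPM. Nefm, the medium neurofilament subunit, and Phlda1 share 19.2% and 33% of their exon length with another gene. Below these 15 came Gbx2 (2.33; 43.5% of its exon length shared), a homeobox factor that supports self-renewal downstream of LIF, and Slc39a14 (2.20), a zinc transporter.

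Genes that mark stages of pluripotency moved in both directions. Of 12 naive pluripotency genes, all tested, 2 were higher (Klf5 and Nr0b1), 1 was lower (Prdm14), and the median was -0.08. Klf5, a Krüppel-like factor, rose by 0.99 (SE 0.13, edgeR adjusted p = 0.000104), from 44.8 to 87.1 CPM with ERK off to 107 to 159 CPM with ERK on. Prdm14, a repressor that guards the naive state, fell by 0.81 on the log2 scale and was not ERK-following. In clone 4 it held 4.34 to 4.77 log2 CPM with ERK off and 2.61 to 3.30 with ERK on. In clone 8 the states overlapped, at 4.83 to 5.19 off and 4.28 to 4.92 on. Nanog (-0.48) and Klf2 (-0.35) had an unadjusted p under 0.05 by edgeR and were not called. Of 10 general pluripotency genes, all tested, 4 were higher, 0 lower, with a median of 0.52. Utf1 (0.84), Dppa4 (0.69) and Dppa2 (0.64), which are expressed in undifferentiated cells, were among the higher ones and did not follow the state in every library.

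Among 13 tested formative and primed genes, 1 was called, Zic2, higher by 0.54, and the median was 0.45. Of the 12 tested genes of the rosette state and lumen none was called by edgeR, 2 had an unadjusted p under 0.05 (Cdh1 and Cgn), DESeq2 called 1 and the median was -0.053.

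Secreted, surface and cycle genes downstream of growth factors had 14 tested of 17, with 4 higher (Hbegf, Plaur, Epha2 and Ccnd2), 0 lower and a median of 0.22. Epha2, an ephrin receptor (chr4:141301240-141329384, plus strand), held 60.6 to 101 CPM with ERK off (median 76.9) and 124 to 166 CPM with ERK on (median 142). Its change was 0.88 (SE 0.10, edgeR adjusted p = 2.8e-05), 1.24 in clone 4 and 0.52 in clone 8. The 2h (146 ± 8.13 CPM) and 4h (143 ± 17.6 CPM) means of Epha2 were alike, as were 0h (77.6 ± 18.8 CPM) and rev (80.7 ± 16 CPM). Hbegf, a ligand of the EGF receptor, rose by 1.21.

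The lists of this paragraph held 1 call or none each, where 1.96% of all tested genes were called higher and 1.19% lower. SRF and YAP targets had 1 higher of 12 tested (Ccn1, 1.44) with a median of 0.15, the Nodal pathway 1 higher of 10 (Tdgf1, 0.46) with a median of -0.15, and the ATF4 amino-acid response 1 lower of 16 (Ddit4) with a median of -0.06. Heat shock and unfolded protein genes had 1 higher of 10 (Hspa8, 0.30; median 0.21). For ribosome biogenesis (20 tested, median 0.12), sterol synthesis (12 tested, median 0.20) and simple epithelial keratins (4 tested, median -0.16) edgeR called none, with 2, 5 and 0 genes at an unadjusted p under 0.05, and DESeq2 called none.

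Of the markers of other cell types, edgeR called Eomes (0.72) and Pax6 (1.80) higher and Gsc (-1.13) and Sox1 (-0.82) lower. Of 5 tested primitive endoderm genes none was called, 1 had an unadjusted p under 0.05 (Gata4) and DESeq2 called none; their median was -0.23. The mesendoderm list had 2 tested of 6 (1 higher, 1 lower, median -0.21; summed level 5.19 to 8.04 CPM with ERK on and 4.25 to 8.34 CPM with ERK off). T, Mixl1, Mesp1 and Tbx6 did not pass the filter. The neural list had 3 tested of 6 (1 higher, 1 lower, median -0.00649; 40.5 to 65.9 CPM on, 36.5 to 49.6 CPM off), and Neurog2 was at 0 in 15 of 16 libraries. The trophoblast list had 4 tested of 6 with 1 higher, Eomes, and a median of 0.17 (33.3 to 82.1 CPM on, 39.0 to 74.1 CPM off). Pax6, a factor of early neural and eye development, was the only one of these markers that was ERK-following, from 0.799 to 4.70 CPM off to 2.66 to 21.7 CPM on, with its highest values in the clone 4 libraries at 4h (17.3 and 21.7 CPM). In bulk RNA a change in the share of cells and a change in RNA per cell cannot be told apart; the part of rare cells in these 4 calls was not tested.

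**Figure D2:**
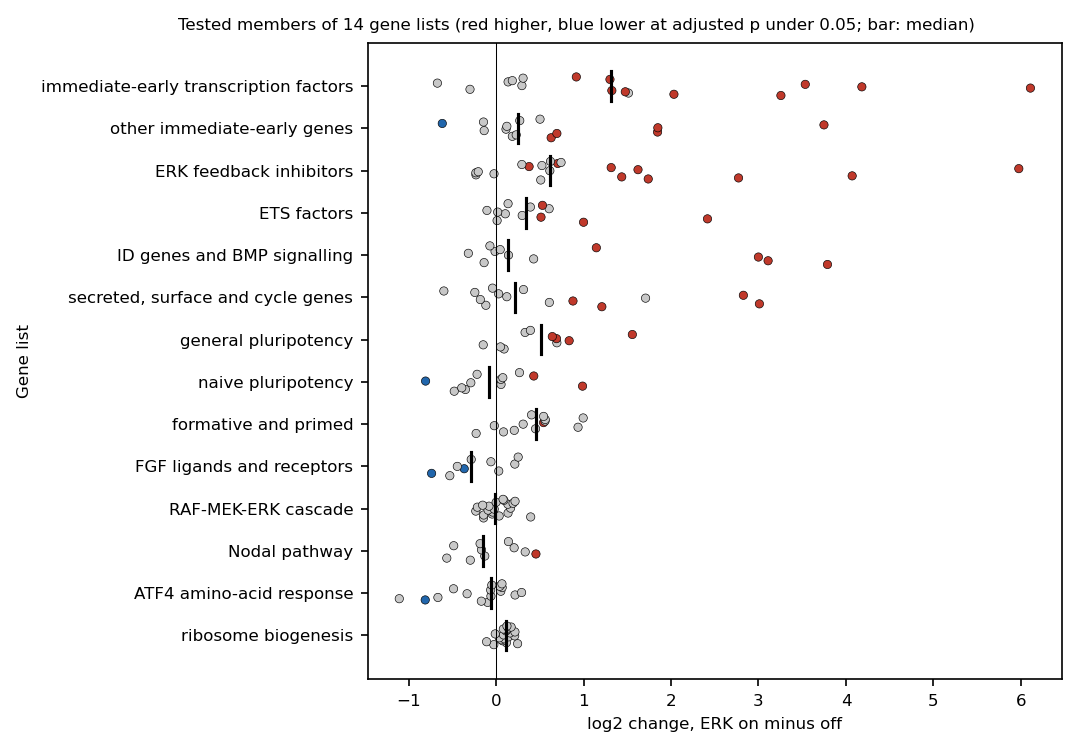
Change of each tested member of 14 gene lists (horizontal axis, log2, ERK on minus off; 1 point per gene, vertical offset only to separate points), red where called higher, blue where called lower, grey where not called, with a bar at the list median. Immediate-early transcription factors (median 1.31) and feedback inhibitors (median 0.62) reach furthest to the right, and the cascade genes lie around 0.

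The ERK-following genes that fell did so by modest amounts, at most by 1.5 on the log2 scale (Olfr539, a thinly counted gene that the naming rule leaves out). Elf3, an ETS factor of epithelial cells (chr1:135253575-135258568, minus strand), held 24.8 to 39.0 CPM with ERK off (median 34.7) and 8.00 to 19.7 CPM with ERK on (median 12.8), a change of -1.28 (SE 0.16, edgeR adjusted p = 9.01e-05). It was 35.1 ± 3.14 CPM at 0h, 13.5 ± 3.03 CPM at 2h, 13.5 ± 5.77 CPM at 4h and 30.6 ± 6.52 CPM at rev (SD, n = 4). Rgma (chr7:73375509-73419899, plus strand) held 6.99 to 9.99 CPM off (median 9.04) and 1.87 to 6.33 CPM on (median 3.74), a change of -1.25 (SE 0.16, edgeR adjusted p = 0.000123). At rev, Elf3 differed from 0h by -0.18 and Rgma by 0.09 on the log2 scale, neither of which edgeR called.

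The other 13 named falls were between -0.87 and -0.55. Kif5a (-0.87), a kinesin heavy chain, Srcin1 (-0.82), an inhibitor of SRC signalling, and Nfatc4 (-0.79), a calcium-regulated transcription factor, came next to Ddit4 (-0.81), the inhibitor of mTORC1 that stress induces. Tob1 (-0.68), an anti-proliferative protein, held 26.1 to 61.5 CPM off and 12.3 to 34.3 CPM on; the ranges overlapped across clones but not within either. Cldn4 (-0.60), a claudin of tight junctions (chr5:134945119-134946934, minus strand), held 25.6 to 44.4 CPM off and 17.0 to 25.3 CPM on. The others were Plpp3 (-0.73), Nova2 (-0.67; 31.7% of its exon length shared), Fam102a (-0.66), Zfp74 (-0.65), Trpm4 (-0.61), Ttl (-0.57) and Scube3 (-0.55). The call of Ttl (edgeR adjusted p = 0.0356) was lost when any of 8 single libraries was left out (adjusted p = 0.0553 to 0.0698): 0h clone 4 replicates 1 and 2, 0h clone 8 replicate 2, 2h clone 8 replicate 2, 4h clone 4 replicate 2, 4h clone 8 replicates 1 and 2, and rev clone 8 replicate 2.

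The falls depended on the scaling. With library totals in place of TMM, edgeR called 271 genes higher and 8 lower (97.1% higher, against 62.3% with TMM), the median of all genes shifted to 0.15 and no lower gene was ERK-following. The share of counts in the 8 most abundant features overlapped between the states in each clone. In clone 4 it was 61.1% to 64.9% with ERK on and 58.8% to 62.4% with ERK off. In clone 8 it was 46.7% to 61.8% with ERK on and 61% to 78.9% with ERK off. The value of 78.9% was that of rev clone 8 replicate 1. The part of this share in the shift was not tested. Once these features were left out of the library totals, an alternative added after the data were seen, 207 genes were higher and 183 lower, 98 higher and 54 lower genes were ERK-following and the median was -0.0372. Of the 15 named falls, Elf3, Rgma and Kif5a were still called with plain library totals; the other 12 kept their sign, at -0.67 (Srcin1) to -0.39 (Scube3), and were not called by edgeR (adjusted p = 0.056 to 0.407).

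**Figure D3:**
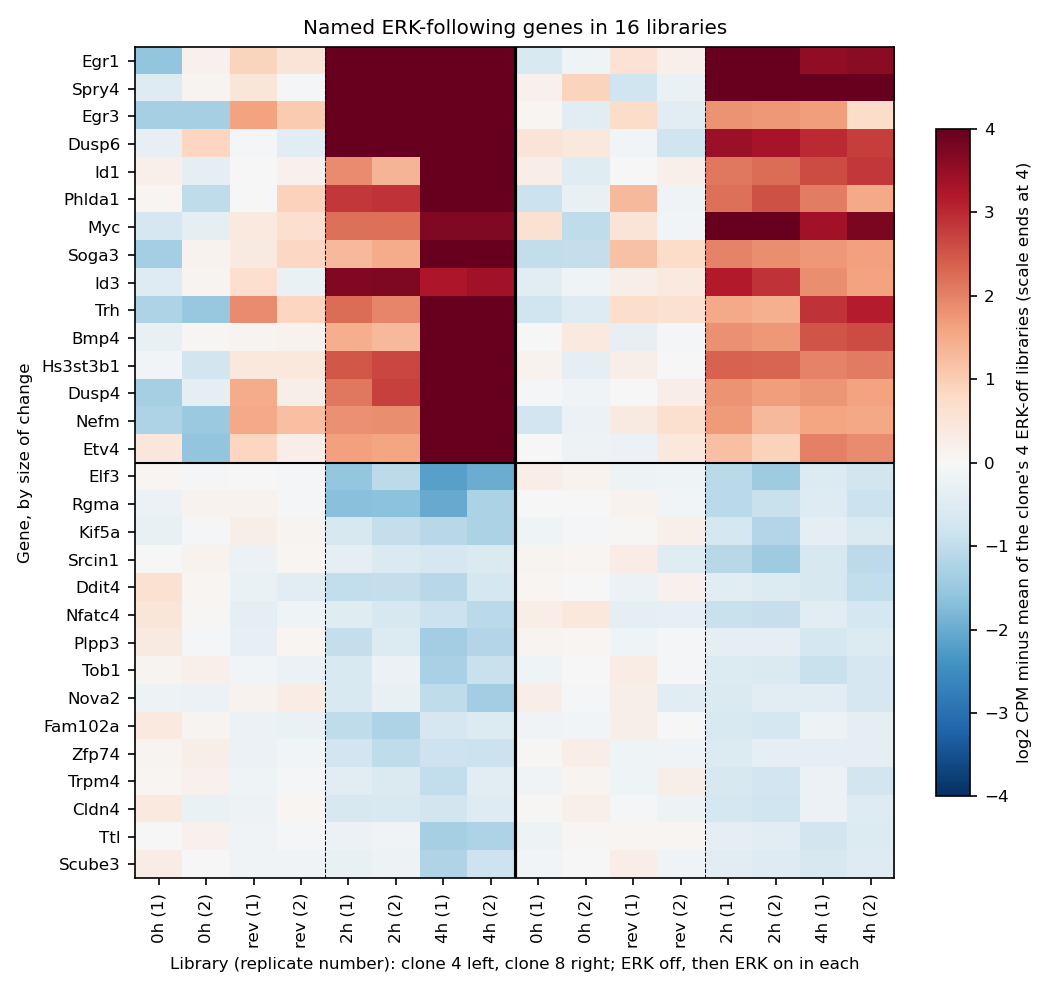
The 30 ERK-following genes of the naming rule (rows, 15 rises above the line and 15 falls below, by size) in the 16 libraries (columns, clone 4 left and clone 8 right, ERK off before ERK on), coloured by log2 CPM minus the mean of the clone's 4 ERK-off libraries, with the scale ending at 4. Most rises are deepest in the clone 4 libraries at 4h, and Elf3 and Rgma are deepest among the falls, in clone 4.

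Each clone was then fitted alone, which gives separate measurements because the clones share no library. Clone 4 gave 65 called genes (0.51% of those tested) and clone 8 gave 76 (0.596%). Both lists held 28 genes in the same direction, 26 higher (0.204% of those tested) and 2 lower (0.0157%), together 0.22%, which is 43.1% of the clone 4 list and 36.8% of the clone 8 list, and no gene was called in opposite directions. Without 0h clone 4 replicate 2 they shared 18. With 4 libraries a state in each clone these fits have less power than the pooled one, and all 28 were among the 150 ERK-following genes.

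The size of the response differed between the clones. The median change of the 110 higher genes reached 0.978 in clone 4 against 0.661 in clone 8, and 89 of 110 changed more in clone 4, as did 7303 of all 12742 genes. For the 40 lower genes the medians were -0.744 and -0.538, with 30 of 40 larger in clone 4. When the difference itself was tested with edgeR as an interaction of state and clone, 1 gene was called (0.00785% of those tested; 581 genes, 4.56%, had an unadjusted p under 0.05). That gene was Arc, an activity-regulated cytoskeletal protein of neurons. In clone 4, Arc held 10.9 to 22.4 CPM off and 109 to 145 CPM on, and in clone 8 it held 15.1 to 20.3 CPM off and 24.0 to 33.4 CPM on. The clone 8 change was the smaller one (difference -2.11 in log2, edgeR adjusted p = 0.00346), with changes of 2.86 and 0.75 in the fits of each clone.

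That interaction model counts the difference between 2h and 4h as noise. With each group of each clone as a cell of its own, 8 cells in all, 426 genes (3.34%) differed between clones in their on minus off change, 280 (2.2%) with a lower and 146 (1.15%) with a higher value in clone 8, and 33 of the 150 ERK-following genes were among them. All 29 of the higher genes among these had the smaller rise in clone 8, and all 4 lower genes had the smaller fall there. Of the 33, Arc (-2.26), Dusp4 (-2.02), Nefm (-1.85), Etv4 (-1.64), Dusp6 (-1.63), Spred1 (-1.59), Spry4 (-1.56) and Egr1 (-1.52) had the largest differences (clone 8 minus clone 4, log2).

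The clones also differed within the on state, in the step from 2h to 4h. When each time was set against 0h, more of the higher ERK-following genes differed between clones at 4h than at 2h. Over all genes the order was the reverse, with more differing at 2h. These tests were added after the values were seen. Between 2h and 4h the 110 higher genes went on rising in clone 4, by a median of 0.31, and hardly changed in clone 8, with a median of 0.0321; 83 of 110 had the higher value in clone 4, as did 6202 of all 12742 genes. The difference was called for 42 of the 110 genes, 36 of them with the smaller or negative step in clone 8, in a background of 1891 of all genes (14.8%). For 2h against 0h it was called for 22 of the 110, 20 of them smaller in clone 8, in a background of 1012 genes (7.94%). For 4h against 0h it was called for 36 of the 110, all smaller in clone 8, in a background of 729 genes (5.72%), with medians of 1.34 in clone 4 and 0.734 in clone 8. Of the 40 lower genes, 9 differed in the step from 2h to 4h, each with the higher value in clone 8.

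Id1 shows the pattern library by library. It was 3.11 and 2.07 CPM in clone 4 and 2.13 and 2.31 CPM in clone 8 at 2h, then 23.2 and 21.6 CPM in clone 4 and 3.12 and 3.67 CPM in clone 8 at 4h. The clones lay close together at 2h and far apart at 4h. The step from 2h to 4h differed by -2.51 (clone 8 minus clone 4, log2, edgeR adjusted p = 1.63e-05). Myc was 13.2 and 13.3 CPM in clone 4 and 39.3 and 36.4 CPM in clone 8 at 2h, then 37.6 and 37.8 CPM in clone 4 and 16.7 and 22.5 CPM in clone 8 at 4h. Its time courses crossed, with a difference in step of -2.48 (edgeR adjusted p = 1.48e-09), while its change over both times was large in both clones. Each clone and group holds 2 libraries, and nothing in the labels says that these are separate cultures, so p-values measure the spread between libraries, which may be technical.

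**Figure D4:**
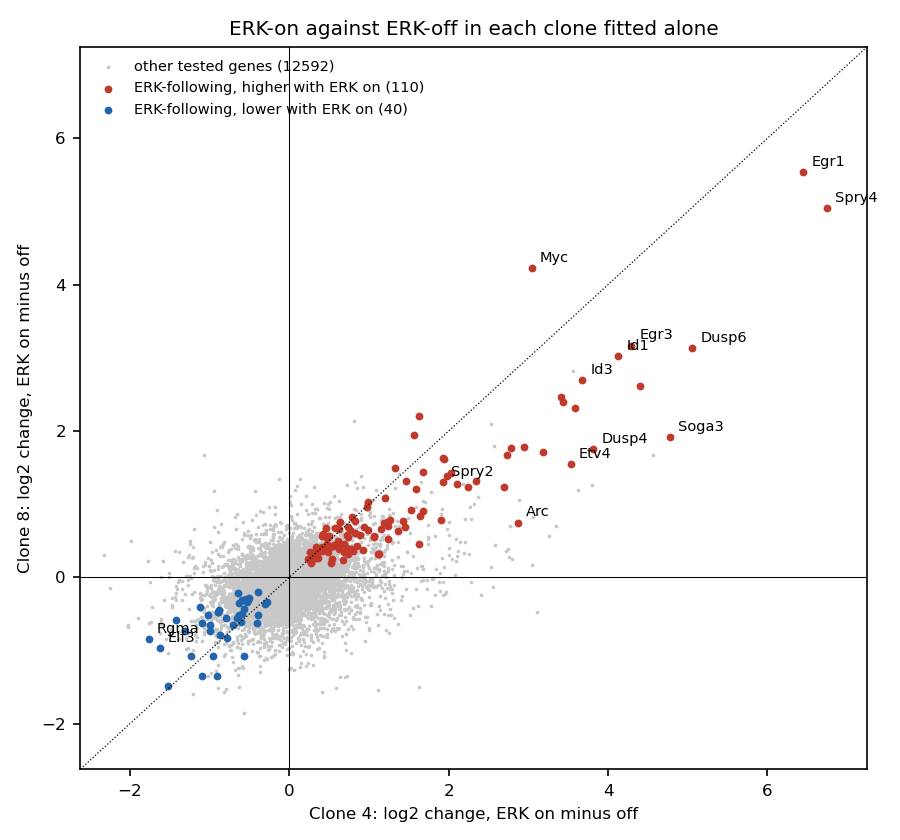
Change of each of 12742 genes in clone 4 (horizontal axis) and clone 8 (vertical axis), log2, ERK on minus off, each clone fitted alone, with 110 higher ERK-following genes in red and 40 lower in blue and a dotted line of equal change. Most red points lie below the line (89 of 110 larger in clone 4), Myc lies above it and Arc (2.86 in clone 4, 0.75 in clone 8) well below it.

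The on and off states can also be compared within each side of the split seen in the third component. 4h against 0h lies on one side and 2h against rev on the other, and the contrasts share no library. edgeR called 1645 genes (12.9%) for 4h against 0h and 227 (1.78%) for 2h against rev. They shared 84 genes in the same direction, 62 higher and 22 lower, which is 5.11% of the first list and 37% of the second, and 17 genes were called in opposite directions. The crossed contrasts, 2h against 0h (2162 genes, 17%) and 4h against rev (1224 genes, 9.61%), also share no library. They shared 151 genes in the same direction (6.98% and 12.3%) and 219 in opposite directions.

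The ERK-following genes had been chosen on these libraries, so their calls in these contrasts are a description. Of the 150, 139 were also called in the same direction for 4h against 0h and 59 for 2h against rev. For 2h against 0h it was 134 and for 4h against rev 112. In all 4 contrasts 46 were called (40 higher and 6 lower), against 50 of all 12742 tested genes. The median rise of the 110 higher genes was 1.02 for 4h against 0h and 0.544 for 2h against rev. Egr1 (5.65 and 6.46), Spry4 (5.78 and 6.23), Dusp6 (3.78 and 4.6), Id3 (2.83 and 3.24) and Spry2 (1.73 and 1.51) changed by similar amounts in both. Trh (5.16 and 0.85) and Nefm (4.94 and 0.94) changed far more between 0h and 4h than between rev and 2h.

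**Figure D5:**
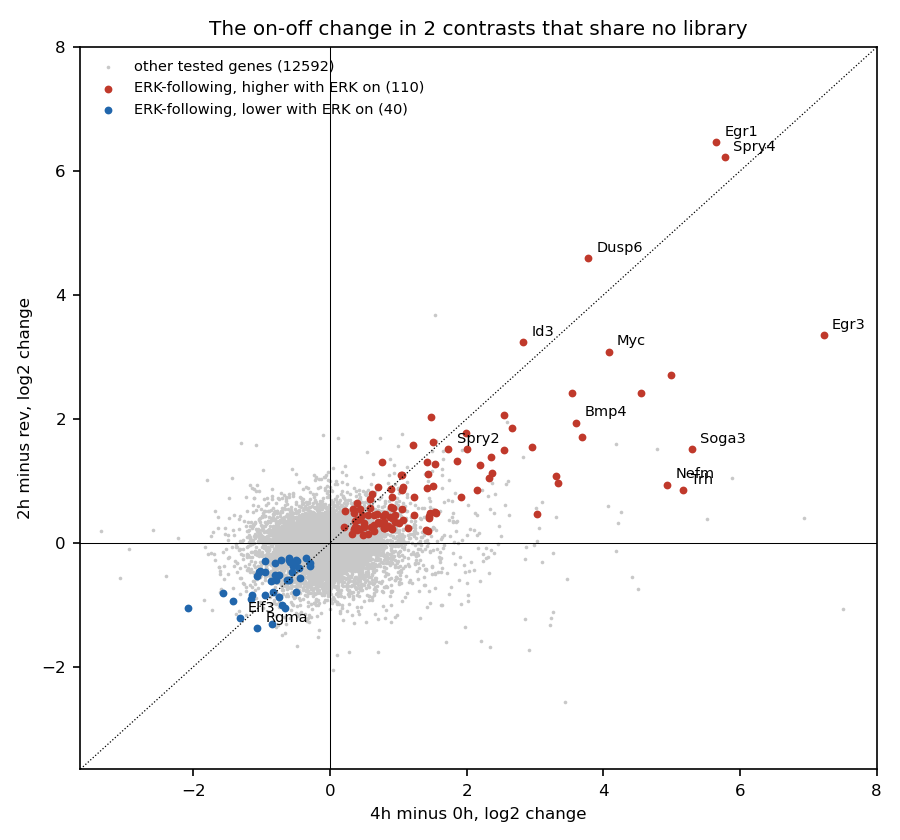
Change of each gene for 4h minus 0h (horizontal axis) and 2h minus rev (vertical axis), log2, from the 4-group fit, with ERK-following genes in red (110 higher) and blue (40 lower) and a dotted line of equal change. Egr1, Spry4, Dusp6 and Spry2 lie near the line, and Trh (5.16 and 0.85) and Nefm (4.94 and 0.94) far below it.

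How fully each gene tracked the state was summarised by splitting the variation among the 4 group means into 3 independent parts: on against off, 0h and 4h against 2h and rev, and early (0h and 2h) against late (4h and rev). For Epha2 99.8% of this variation lay in the on and off part, for Spry4 99.4%, for Elf3 98.9%, for Spry2 98.5% and for Rgma 98.2%. These are shares of means over both clones and can hide differences between clones. Epha2 rose by 1.24 in clone 4 and 0.52 in clone 8 (difference -0.73 with 8 cells, edgeR adjusted p = 3.57e-05). Opposite steps can be hidden too. From 2h to 4h, Spry4 went from a mean of 130 to 228 CPM in clone 4 and from 80.7 to 54.7 CPM in clone 8. Elf3 went from 15 to 8.57 CPM in clone 4 and from 11.9 to 18.4 CPM in clone 8. For Trh the on and off part held 66.0% and the early and late part 34.0%, for Nefm 68.1% and 31.5%, and for Soga3 76.3% and 23.5%. The median over the 150 ERK-following genes was 87.1% in the on and off part, against 22.3% over all tested genes. Choosing genes by the order of on and off libraries favours a high share, so this median is a description. For called genes that were not ERK-following it was 79.7% (higher) and 84.6% (lower).

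Within each state the 2 groups could be compared by tests that do not use the on and off difference, although the choice of genes favoured those with little spread within a state. For rev against 0h, 19 of the 150 genes differed by edgeR (10.5% of all genes did), 16 of them higher at rev (5.51% of all genes) and 3 lower (4.94%). The higher ones were led by Egr3 (3.59), Evx1 (2.10), Trh (2.06) and Maff (1.41); Egr3 rests on counts near 0 at 0h. Enc1 (0.61), Nfkb1 (0.54), Etv5 (0.35) and Pdpk1 (0.48) were also higher at rev. Nfatc4 (-0.61) and Tbl2 (-0.37) were among the lower ones.

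For 4h against 2h, 29 of the 150 differed (12.1% of all genes did), 26 of them higher at 4h (5.78% of all genes) and 3 lower (6.36%). The higher ones were led by Trh (2.25), Soga3 (2.04), Id1 (1.96), Etv4 (1.91), Bmp4 (1.79) and Nefm (1.76). Egr1 (-1.65) and Id3 (-0.88), and Ttl (-0.64) among the falls, were lower at 4h. The median of the 110 higher genes was 0.182 for rev against 0h and 0.225 for 4h against 2h. Over all tested genes the medians were 0.000273 and -0.00256. Of the 110 higher genes, 83 and 87, respectively, were above 0. Because clone 4 and clone 8 took different steps between 2h and 4h, these averages describe neither clone by itself.

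Among the smaller rises stood genes of many roles. Tiparp, an ADP-ribosyltransferase, rose by 1.78 (SE 0.14, edgeR adjusted p = 1.08e-07), from 8.99 to 17.9 CPM off to 32.9 to 55.9 CPM on, and Noct, a NADP(H) phosphatase with a daily rhythm, by 1.71. Cdc42ep4, an effector of CDC42, rose by 1.40 over both times, with similar size in clone 4 (1.32) and clone 8 (1.49). Its time courses differed, with means of 22.9 CPM in clone 4 and 35.5 CPM in clone 8 at 2h. At 4h the means were 38.5 and 32.3 CPM. The step from 2h to 4h differed by -0.84 (clone 8 minus clone 4, log2, edgeR adjusted p = 0.00276). Zfp36l2 (1.07), a relative of Zfp36l1, was called in each clone alone, while Irs2 (0.74), an adaptor of the insulin receptor, was called in clone 4 alone (1.11) and not in clone 8 (0.32). Rbpj, the DNA-binding factor of Notch signalling, rose by 0.73, and its processed pseudogene Rbpj-ps3 by 0.81; the 2 share sequence, so reads could have been counted for either. Genes that act on chromatin or RNA polymerase II transcription in the list included Setd1b (0.80), Jmjd1c (0.65), Zfp281 (0.55) and Atrx (0.46). Of 347 tested genes with a numbered Zfp name, 17 were higher and 2 lower in the pooled test with a median of -0.00491. Of the 347, 9 higher and 1 lower were ERK-following. Over all 12742 genes, 250 were higher (1.96%) and 151 lower (1.19%), and 110 higher (0.863%) and 40 lower (0.314%) were ERK-following. Whether the Zfp share differs was not tested.

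Several genes were called without following the state library by library, 140 higher and 111 lower. The largest by the naming rule were Snai3 (3.68), Fos (3.26) and Plaur (3.01) upwards and Pnpla3 (-1.02), Sema6c (-1.02) and Sgo2b (-0.99) downwards. Snai3, a Snail-family repressor, held 2.66 to 82.3 CPM with ERK on and 0.20 to 3.16 CPM with ERK off, and changed by 4.57 in clone 4 and 1.67 in clone 8. Plaur, the urokinase receptor, held 2.14 to 69.2 CPM with ERK on and 0.207 to 4.41 CPM with ERK off.

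Promoter windows of the 250 bases before the start site were examined for short motifs, with sequences from RefSeq on GRCm38.p6. The table matched 72 of the 110 higher ERK-following genes (94 windows) and 28 of the 40 lower (28 windows). 6 windows are shown, for 2 ERK-following feedback genes that the table holds (Dusp6, chr10:99262981-99263230, plus strand, and Spry2, chr14:105896820-105897069, minus strand), the 2 signalling peptides among the largest rises (Trh, chr6:92244651-92244900, minus strand, and Bmp4, chr14:46390670-46390919, minus strand), Epha2 (chr4:141300971-141301220, plus strand) and the falling gene Cldn4 (chr5:134946935-134947184, minus strand). Each reads 5′ to 3′ on the gene's strand and ends just before its start. Capitals mark matches to any of the 6 motifs searched on both strands: CCGGAA (ETS), TGANTCA (AP-1), TGACGTCA (CREB and ATF), GCGNGGGCG (EGR), CACGTG (E-box) and the CArG box of SRF.
Dusp6: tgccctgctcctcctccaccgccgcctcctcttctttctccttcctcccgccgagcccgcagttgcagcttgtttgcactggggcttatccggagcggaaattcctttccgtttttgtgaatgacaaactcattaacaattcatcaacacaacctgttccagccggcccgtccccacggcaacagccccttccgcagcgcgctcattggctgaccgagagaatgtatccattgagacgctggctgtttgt
Spry2: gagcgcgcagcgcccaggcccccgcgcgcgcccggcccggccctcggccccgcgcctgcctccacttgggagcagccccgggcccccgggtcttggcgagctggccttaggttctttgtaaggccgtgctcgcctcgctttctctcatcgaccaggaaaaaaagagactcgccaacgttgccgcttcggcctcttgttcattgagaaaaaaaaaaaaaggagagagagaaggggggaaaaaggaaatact
Trh: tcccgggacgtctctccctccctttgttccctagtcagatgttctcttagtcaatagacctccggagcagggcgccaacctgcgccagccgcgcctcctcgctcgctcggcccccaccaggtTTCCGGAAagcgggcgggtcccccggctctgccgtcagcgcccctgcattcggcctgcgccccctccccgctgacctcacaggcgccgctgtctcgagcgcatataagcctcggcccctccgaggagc
Bmp4: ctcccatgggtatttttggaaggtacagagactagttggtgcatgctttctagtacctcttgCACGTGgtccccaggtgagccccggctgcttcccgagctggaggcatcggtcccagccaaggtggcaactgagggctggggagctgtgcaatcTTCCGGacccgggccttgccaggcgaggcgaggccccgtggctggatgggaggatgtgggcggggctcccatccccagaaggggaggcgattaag
Epha2: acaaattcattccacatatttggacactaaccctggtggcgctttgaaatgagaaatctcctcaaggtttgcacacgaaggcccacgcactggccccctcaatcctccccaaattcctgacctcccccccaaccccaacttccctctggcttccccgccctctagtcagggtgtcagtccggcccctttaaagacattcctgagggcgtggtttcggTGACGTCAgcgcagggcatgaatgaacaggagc
Cldn4: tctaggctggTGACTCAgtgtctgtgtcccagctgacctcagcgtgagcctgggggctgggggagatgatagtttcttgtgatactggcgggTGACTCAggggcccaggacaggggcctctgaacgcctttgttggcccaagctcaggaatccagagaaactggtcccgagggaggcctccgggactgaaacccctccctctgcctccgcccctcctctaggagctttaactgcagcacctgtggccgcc

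The Dusp6 and Spry2 windows held none of the 6 motifs, although both hold GGAA, the shorter string within CCGGAA, which was not searched. In Trh the CCGGAA motif occurred on both strands in overlapping letters, TTCCGG and CCGGAA, so that the capitals form 1 run. Bmp4 held 1 CACGTG and 1 TTCCGG, Epha2 held TGACGTCA from 33 to 26 bases before the start, and Cldn4 held TGACTCA at 2 places. Among the 94 windows of higher genes, 7 held TGACGTCA (7.45%, against 2.58% of 12168 windows of tested genes and 1.55% of 32851 in the whole table). These belonged to Pax6, Maff, Epha2, Senp2, Zdbf2, Arl5b and Zbtb11. Of the 28 windows of lower genes, 2 held it, a like share (7.14%), those of Klc1 and Ppp1r15a. CACGTG was in 13 windows (13.8%, against 8.5% of tested genes and 6.02% of all), GCGNGGGCG in 12 (12.8%, against 9.13% and 4.7%), CCGGAA in 18 (19.1%, against 22.1% and 12%), TGANTCA in 2 (2.13%, against 4.03% and 6.75%) and the CArG box in 0 (against 1.07% and 1.47%). Among the 28 windows of lower genes, TGANTCA was in 3 (10.7%), those of Cldn4, Arhgef19 and Olfr539, and CACGTG in 0. A match is a string of letters and not a measured binding site, and these shares were not tested.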

How the data were processed

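The data were deposited gene counts from 16 rRNA-depleted total RNA libraries. Per the submitters' processing notes, bcl2fastq 2.19.1, STAR 2.5.3a and the mm10 build were used; the counting program, its annotation and its strand setting are not given in the sources used here. The authors deposited raw counts per gene ID, and 52489 of 52636 IDs were matched to GENCODE vM21 (GRCm38) for names and positions. The members and lists were chosen with earlier results of these data known.

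Genes were kept by filterByExpr (minimum count 10, minimum total 15), which left 12742, and libraries were scaled by TMM. The fit was edgeR 4.0.16 (quasi-likelihood, R 4.3.3) with clone and state, p-values adjusted by Benjamini-Hochberg over all tested genes, threshold 0.05. Each clone alone, the interaction of state and clone, a 4-group model and a model of 8 group and clone cells used the same tool. SE was taken from the size of the log2 change and its F statistic. Alternatives were library totals, DESeq2 1.42.0, no filter, an adjusted p under 0.01, other covariates and each library left out.

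Named were the 15 largest rises and 15 largest falls among ERK-following genes averaging 50 counts or more over the libraries of the higher state, with no predicted-gene name, the 3 largest called genes in each direction that were not ERK-following, the clone difference called in both fits, and list members that a count turns on. Other genes given were chosen after their values were seen. A few genes that the rules name are not reported here. No library pair within a clone and group looked like a duplicate (chi-square over its degrees of freedom 1.32 to 4.49). On simulated counts for the pooled comparison over 12742 genes, 21, 41, 50 and 50 of 50 genes were recovered at changes of 0.5, 1, 2 and 3 on the log2 scale, with 11 false calls. The simulated counts held no difference between 2h and 4h or between 0h and rev, unlike the data. These figures therefore do not give the error rate of the pooled fit on the data.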

Additional observations from a re-analysis of the deposited data

Results flagged for a closer look

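Genes are given here because the clones differed in their response by a test of the difference itself (edgeR, adjusted p under 0.05), all as clone 8 minus clone 4 on the log2 scale. For on minus off, the interaction of state and clone gave Arc, at -2.11.

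In the model of 8 group and clone cells the on minus off change was smaller in clone 8 for Egr1 (-1.52), Spry4 (-1.56), Dusp6 (-1.63), Id3 (-1.21), Trh (-1.38), Hs3st3b1 (-1.26), Dusp4 (-2.02), Nefm (-1.85) and Etv4 (-1.64). The fall was smaller in clone 8 for Elf3 (0.76) and Rgma (0.97).

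For the step from 2h to 4h, a test added after the values were seen, the difference was negative for Egr1 (-1.52), Spry4 (-1.37), Dusp6 (-1.64), Id1 (-2.51), Phlda1 (-2.75), Myc (-2.48), Soga3 (-4.65), Id3 (-0.87), Trh (-1.29), Bmp4 (-1.93), Hs3st3b1 (-1.95), Dusp4 (-2.53), Nefm (-2.76) and Etv4 (-2.01). It was positive for Elf3 (1.46), Kif5a (0.88), Ttl (0.87) and Scube3 (0.70).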

How the results depend on the processing

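Of the 37 named genes all kept their direction in every alternative run. All 37 stayed called with DESeq2, without the filter, with library totals less the features above 1% (added after seeing the data), in the 4-group model and with the side of the split as a covariate; library totals ended 13 calls, dropping the clone covariate 10, and fitting clone 4 or clone 8 alone 21 and 17.

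The pooled count of 401 was 604 with DESeq2, 960 without the filter, 129 at an adjusted p under 0.01, 1055 in the 4-group model, 117 without the clone covariate, 663 with the side as covariate and 100 at a change of at least 1 (log2). Library totals gave 99 ERK-following genes, 64 of them among the 150 (90 of the 150 were still called); of the 150, 97 were left at an adjusted p under 0.01 and 28 when a call in each clone replaced the library order. The count called in both clones (28) was 63, 140 and 13 with DESeq2, without the filter and at an adjusted p under 0.01. The clone difference (1) was 0 with library totals, 4 with DESeq2, 121 without the filter and 426 in the 8-cell model. With library totals, 4h against 0h gave 508 genes in place of 1645, and 5 and 10 of the 150 differed within the off and on states in place of 19 and 29. The cause was not tested.

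With single libraries left out the pooled count ran from 250 to 412, ERK-following genes from 136 to 190, calls in both clones from 18 to 38 and the clone difference from 1 to 2 (2 without rev clone 8 replicate 1). Replicate numbers did not pair the libraries (mean correlation of deviations -0.0106 over 12 pairs, from -0.133 to 0.119). A replicate block gave 254 calls and ended that of Ttl (edgeR adjusted p = 0.0662). Depth limits small changes, above all in rev clone 8 replicate 1, with the fewest counts outside the 8 most abundant features.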
